A study of Homo sapiens with 6 samples.

Results

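The nuclear pore complex genes are 30 human genes that encode the subunits of the pore and proteins bound to it, the nucleoporins. They were chosen by gene symbol on a transcriptome array, out of 22411 genes for which a feature carried 1 symbol. All 30 were measured, on 31 features. Signal strength entered the choice at 1 gene only: NUP107 had 2 features and the brighter was taken. Its brighter feature averaged 6.49 over all arrays and its dimmer feature 4.92 on the log2 scale.

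The cells were H460, a line of non-small cell lung cancer, also known as a large cell carcinoma line. There were 3 arrays of H460 cells irradiated with 7 Gy and 3 arrays of H460 control cells that received no radiation. Both groups are the same single line, and no label names a genetic change. Total RNA was extracted with TRIzol, labelled with biotin and measured on the Human Transcriptome Array 2.0, which covers coding and noncoding transcripts. No label says how long after irradiation the RNA was taken. The titles call the replicates biological, and no label says that they came from separate cultures, so the p-values measure the spread between these arrays.

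The nuclear pore is the channel through which protein and RNA pass between nucleus and cytoplasm. Its scaffold is made of stacked rings: the Y complex forms the rings on the outer faces, and the inner ring lies between them at the bend of the membrane. Membrane proteins anchor the scaffold, disordered proteins rich in phenylalanine and glycine (FG) fill the channel, filaments reach into the cytoplasm and a basket reaches into the nucleus. In dividing human cells the pore comes apart in mitosis and is rebuilt afterwards, and further pores are inserted during interphase as the nucleus grows.

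Array medians lay between 4.65 and 4.70, and Pearson correlations across all transcript clusters were 0.9955 to 0.9964 among irradiated arrays, 0.9966 to 0.9975 among control arrays and 0.9938 to 0.9948 between the groups. The irradiation labels were checked on 3 p53 targets, all of which were higher in the irradiated arrays, GDF15 by 2.93, MDM2 by 2.06 and CDKN1A by 0.77 on the log2 scale (limma adjusted p = 4.74e-06, 3.12e-05 and 0.00345). Of 5 epithelial markers, the keratins KRT8, KRT18 and KRT19 averaged 10.85, 9.93 and 10.31 in irradiated arrays and 10.86, 10.08 and 10.15 in control arrays. EPCAM averaged 4.04 in both groups and CDH1 5.13 in irradiated and 5.17 in control arrays, where the median gene had 5.86. At a limma adjusted p under 0.05, none of the 5 epithelial, 7 fibroblast and 6 blood cell markers measured was called, and 2, 1 and 2 of them had an unadjusted p under 0.05. The fibroblast and blood markers ranged in mean signal from 2.86 (PTPRC in control arrays) to 9.20 (CD68 in irradiated arrays), and no detection calls were given.

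Most nuclear pore genes were lower in irradiated cells, and the decrease was largest in NDC1, a membrane anchor of the pore, and in the inner ring genes NUP155 and NUP188. In all, 18 of the 30 genes fell and none rose at a limma adjusted p under 0.05, with the adjustment over all 67528 transcript clusters of the array. Over the 22411 genes with 1 symbol, 5.52% fell and 3.65% rose by the same call. Among protein-coding genes alone, 6.83% fell. These shares include dim genes, while all pore genes but NUP35 had a mean of 5 or more. With a minimum mean of 5, 21 pore genes fell. That fit called 4841 of 30324 clusters in either direction, against 3411 of 67528 without the minimum. The share of all genes called lower in that fit was not counted, so the 21 has no like share beside it. An unadjusted limma p under 0.05 was reached by 25 pore genes, all of them lower in irradiated cells. Over the 22411 genes with 1 symbol it was reached by 5519, of which 2779 were lower. The median difference of the 30 genes, irradiated minus control, was -0.29 on the log2 scale (0.815-fold), beside a median of 0.01 over all genes, and the differences ran from -0.81 for NDC1 to 0.11 for POM121.

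**Figure D1:**
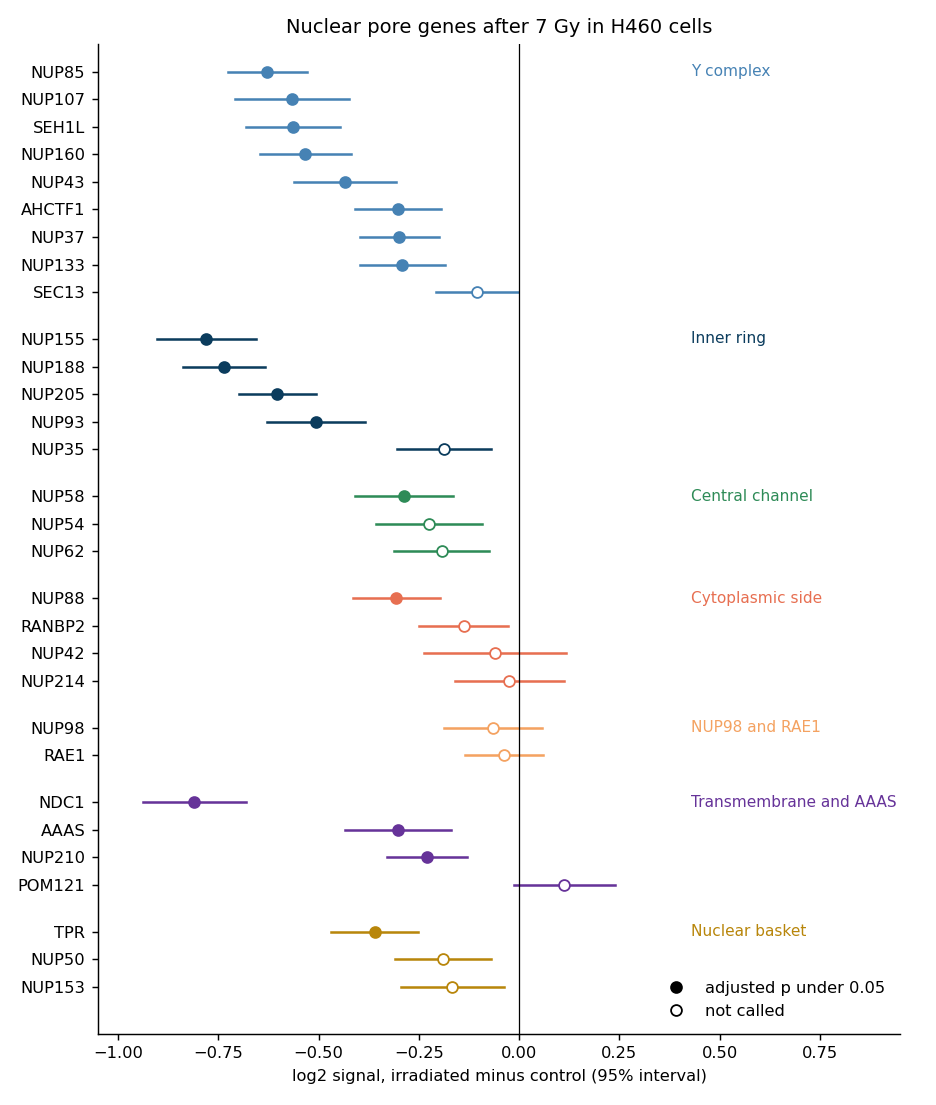
Log2 difference, irradiated minus control, for each of the 30 nuclear pore genes, grouped by subcomplex, with the 95% interval of the limma fit (n = 3 arrays per group). Of the 30 differences 29 lie below 0, and those of the inner ring and the Y complex reach farther down than those of NUP98, RAE1 and most genes of the cytoplasmic side.

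The arrays told the groups apart gene by gene. In 26 pore genes every irradiated array was below every control array, in 1, POM121, every irradiated array was above, and in 3 the groups overlapped. Over all genes, 16.0% had every irradiated array below and 19.1% had every irradiated array above. Measured from each gene's control mean, the median pore gene stood at -0.29, -0.28 and -0.29 in the irradiated arrays, against -0.01, -0.02 and 0.03 in the control arrays. The median of all genes stood at 0.015, 0.015 and 0.0081 in the irradiated arrays, against -0.0010, 0.0069 and -0.0045 in the control arrays. In RNA from a whole culture, fewer cells of one kind and less RNA per cell cannot be told apart.

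**Figure D2:**
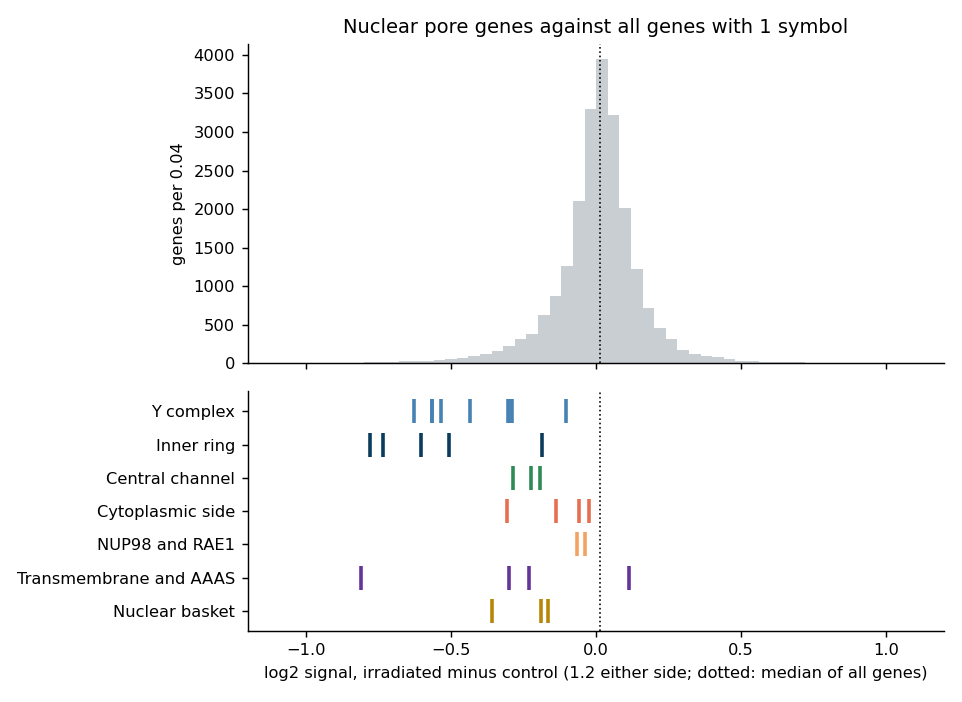
Upper panel, number of genes in each 0.04 step of the log2 difference, irradiated minus control, for all genes with 1 symbol (14 genes lie beyond 1.2 either way and are not drawn). Lower panel, the 30 nuclear pore genes as ticks by subcomplex, with the median of all genes (0.01) as a dotted line. Most ticks lie to the left of the bulk of all genes.

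The 9 pore genes with a difference of -0.5 or below were NDC1, NUP155, NUP188, NUP85, NUP205, NUP107, SEH1L, NUP160 and NUP93. All are scaffold genes of the Y complex or inner ring except NDC1. Over all genes with 1 symbol, 267 (1.19%) had a difference as low. The 14 genes listed for the Y complex and inner ring had a median of -0.52, and 12 of them fell. The other 16 pore genes had a median of -0.19, and 6 of them fell. NUP98, whose gene also encodes the Y complex subunit NUP96, was counted with these 16 and had a difference of -0.06. The difference between the subcomplexes was not tested, so these medians and counts describe them.

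The Y complex, also called the NUP107-NUP160 complex, builds the outer rings and binds chromatin when pores are rebuilt after mitosis. Of the 9 genes listed for it 8 fell, with a median difference of -0.43. The largest decrease in it was in NUP85, a subunit of the short arm of the Y. NUP85 had signals of 7.32, 7.33 and 7.28 in irradiated arrays, against 7.95, 7.92 and 7.94 in control arrays, a difference of -0.63 (SE 0.04, limma adjusted p = 0.000572). The spread within each group was small beside the gap between them.

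NUP107, in the stem of the Y, had 6.10, 6.21 and 6.31 in irradiated arrays and 6.77, 6.75 and 6.79 in control arrays, a difference of -0.57 (SE 0.06, limma adjusted p = 0.00314). The dimmer feature of NUP107 had 4.94, 5.04 and 4.61 in irradiated arrays and 4.96, 4.86 and 5.13 in control arrays, where the groups overlapped. Its difference was -0.12 (95% interval -0.40 to 0.16, limma adjusted p = 0.657), so the features of NUP107 did not give the same call. SEH1L, which joins NUP85 and also serves in a nutrient sensing complex at the lysosome, had 7.50, 7.39 and 7.50 in irradiated arrays and 8.03, 8.05 and 8.01 in control arrays. It fell by 0.56 on the log2 scale (limma adjusted p = 0.00145). NUP160, in the long arm, had 6.77, 6.70 and 6.74 in irradiated arrays and 7.32, 7.21 and 7.27 in control arrays, and fell by 0.53 (limma adjusted p = 0.00164). For both genes every irradiated array was lower than every control array.

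NUP43, a propeller-shaped subunit of the short arm, fell by 0.43 (limma adjusted p = 0.00539), with arrays of 7.07, 7.15 and 7.18 in irradiated cells and 7.63, 7.51 and 7.56 in control cells. NUP133, at the foot of the stem, had 6.70, 6.70 and 6.71 in irradiated arrays and 6.98, 6.96 and 7.05 in control arrays, and fell by 0.29 (limma adjusted p = 0.0129). NUP37, which binds NUP160, fell by 0.30 (limma adjusted p = 0.00901). AHCTF1, or ELYS, brings the Y complex to chromatin. It fell by 0.30 (limma adjusted p = 0.0117), with 8.13, 8.09 and 8.13 in irradiated arrays and 8.45, 8.37 and 8.44 in control arrays. Without control replicate 1 the limma adjusted p was 0.0586 for NUP133 and 0.0633 for AHCTF1, so both lost their calls. Their differences in that fit were -0.30 and -0.29, close to those with all arrays. That fit called 1559 clusters of the whole table, against 3411 with all arrays.

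Of the 9 genes listed for the Y complex, only SEC13 was not called. NUP98, whose gene also encodes a Y complex subunit, was listed apart and was not called either. SEC13 is shared with the COPII coat, which carries protein out of the endoplasmic reticulum. SEC13 had 6.71, 6.76 and 6.72 in irradiated arrays and 6.81, 6.86 and 6.84 in control arrays. Every irradiated array was below every control array, but by little: the difference was -0.11 (95% interval -0.21 to -0.0031, limma adjusted p = 0.258).

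The inner ring is the scaffold layer closest to the channel and the membrane. Of its 5 genes 4 fell, with a median difference of -0.60. NUP155, which touches the membrane and links the ring's parts, had 8.28, 8.14 and 8.18 in irradiated arrays, against 9.02, 8.96 and 8.96 in control arrays. That was 8.20 ± 0.07 in irradiated and 8.98 ± 0.03 in control arrays (SD, n = 3 each), a difference of -0.78 (95% interval -0.90 to -0.66, limma adjusted p = 0.000578) or 0.583-fold. The gap between the groups was many times the spread within either.

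NUP188 and NUP205 are the large, related, spring-shaped proteins of the ring. NUP188 had 7.27, 7.25 and 7.26 in irradiated arrays and 7.97, 7.97 and 8.04 in control arrays, and fell by 0.73 (SE 0.04, limma adjusted p = 0.0004). NUP205 had 7.63 in each of the 3 irradiated arrays and 8.24, 8.21 and 8.26 in control arrays, and fell by 0.60 (SE 0.04, limma adjusted p = 0.000607). NUP93, which holds the ring together and tethers the channel proteins to it, had 7.86, 7.80 and 7.90 in irradiated arrays and 8.36, 8.30 and 8.41 in control arrays. It fell by 0.51 (limma adjusted p = 0.00269). The groups did not overlap for any of these genes.

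NUP35, also called NUP53, binds the membrane and NUP155. It had 4.51, 4.64 and 4.59 in irradiated arrays and 4.75, 4.75 and 4.80 in control arrays, a difference of -0.19 (95% interval -0.30 to -0.07, limma adjusted p = 0.0908). NUP35 was the only pore gene with a mean under 5, and whether its feature was above background is not known.

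**Figure D3:**
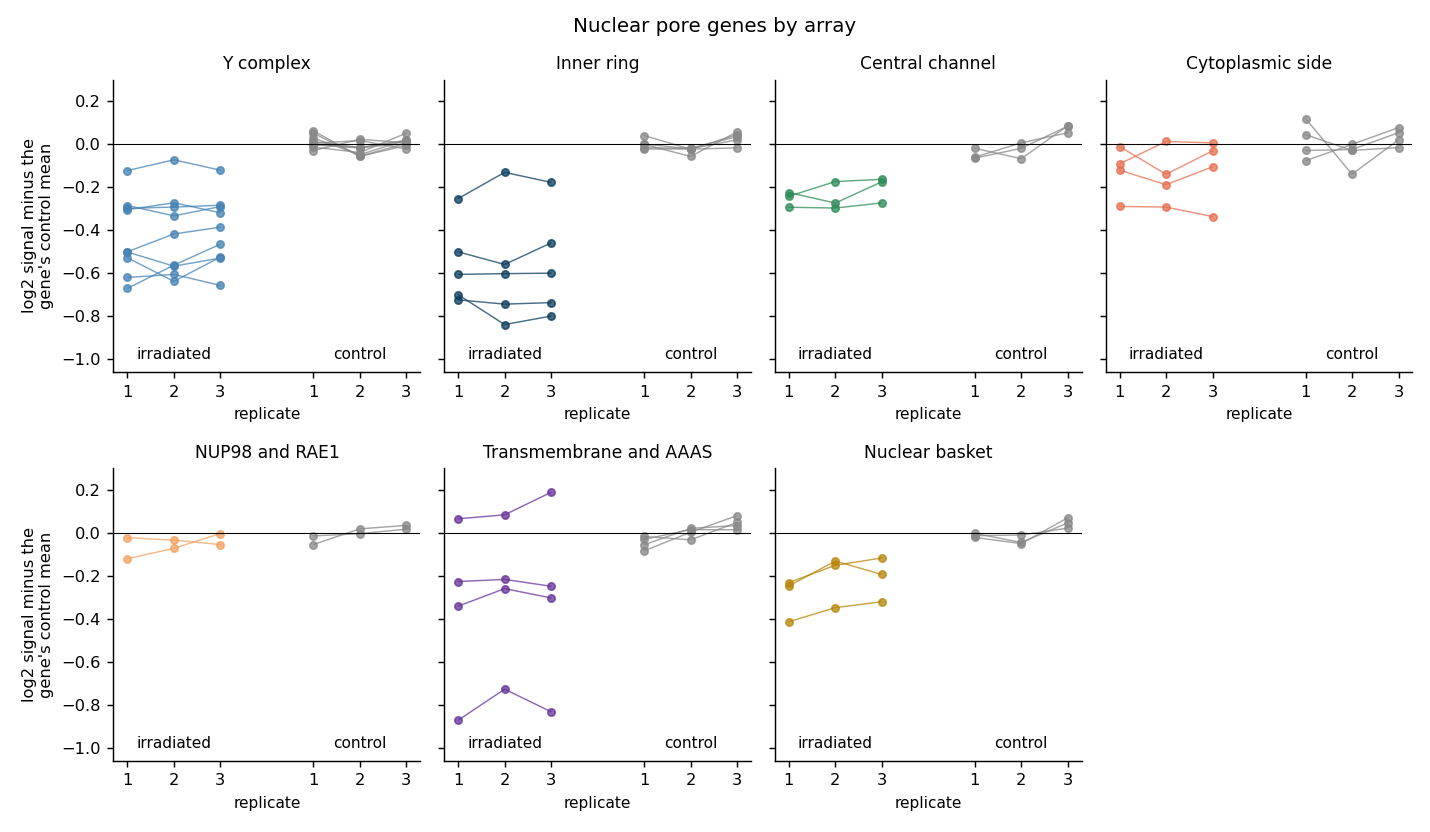
Log2 signal minus the gene's control mean, 1 line per gene and 1 panel per subcomplex, with the irradiated arrays (replicates 1 to 3) left of the control arrays (replicates 1 to 3). Lines join the arrays of a gene and imply no order. Inner ring genes other than NUP35 fell by 0.51 to 0.78 in the irradiated arrays, while the lines of NUP98 and RAE1 stay near 0.

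The membrane group holds the anchoring proteins NDC1, POM121 and NUP210, and AAAS (aladin), which NDC1 holds at the pore and which is mutated in triple A syndrome. Of these 4 genes 3 fell, and the median difference was -0.27. NDC1 spans the membrane and is needed for pore and, in yeast, spindle pole body insertion. It had 6.88, 7.03 and 6.92 in irradiated arrays, against 7.74, 7.72 and 7.80 in control arrays. The means were 6.94 ± 0.07 in irradiated and 7.75 ± 0.04 in control arrays (SD, n = 3 each), a difference of -0.81 (95% interval -0.94 to -0.68, limma adjusted p = 0.000575). By size of decrease NDC1 was the 47th of all 22411 genes, NUP155 the 55th and NUP188 the 77th.

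NUP210, a glycoprotein whose bulk lies in the space between the nuclear membranes, had 8.37, 8.38 and 8.35 in irradiated arrays and 8.57, 8.62 and 8.61 in control arrays. It fell by 0.23 (limma adjusted p = 0.0257). AAAS had 7.79, 7.87 and 7.83 in irradiated arrays and 8.05, 8.13 and 8.21 in control arrays, and fell by 0.30 (limma adjusted p = 0.0276). The groups did not overlap for either gene, but these calls were near the threshold. NUP210 lost its call whichever array was left out (adjusted p up to 0.106), and AAAS lost it without any array except control replicate 1 (up to 0.105).

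POM121 went the other way. This membrane protein, which takes part early in pore assembly, had 7.91, 7.93 and 8.04 in irradiated arrays and 7.79, 7.87 and 7.88 in control arrays. Every irradiated array was above every control array, yet the difference of 0.11 did not pass the test (95% interval -0.01 to 0.24, limma adjusted p = 0.324). POM121C, a near-identical copy of POM121, had 7.99, 8.03 and 8.16 in irradiated arrays and 7.81, 7.89 and 7.95 in control arrays, a difference of 0.18 (limma adjusted p = 0.196). Probes of such copies can read each other's transcripts, so the 2 signals are uncertain as measures of single genes.

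**Figure D4:**
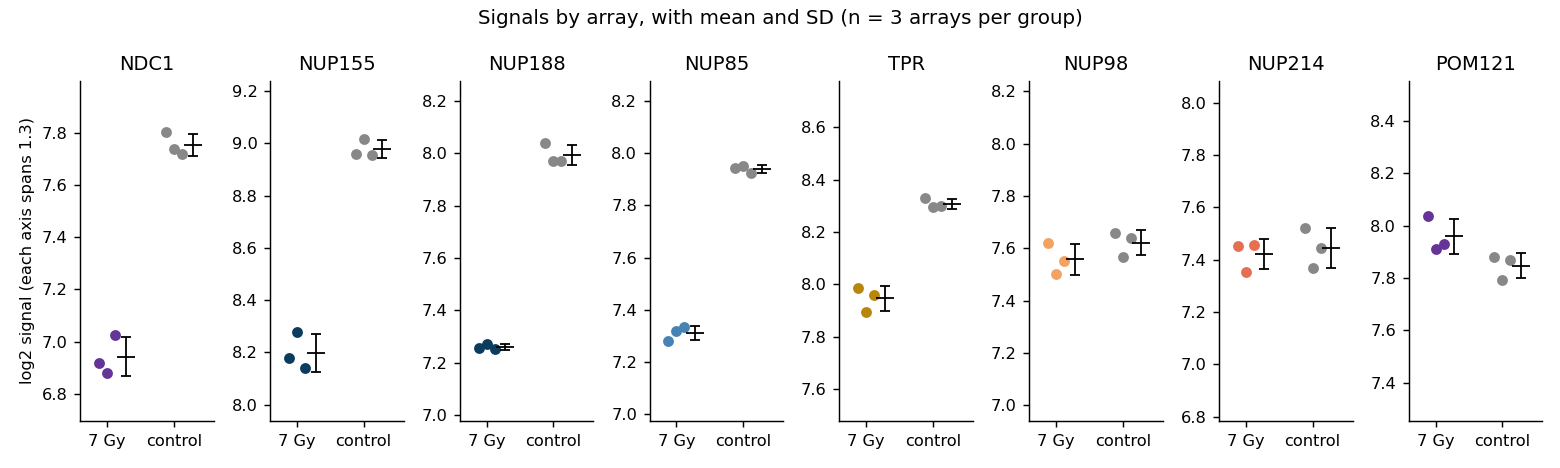
Log2 signal of 8 nuclear pore genes in each array, irradiated left and control right, with the mean and SD of each group (n = 3). The vertical axes have different positions but the same span. NDC1, NUP155, NUP188, NUP85 and TPR are lower in every irradiated array, NUP98 and NUP214 overlap, and POM121 is slightly higher in every irradiated array.

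The promoters of 4 pore genes are shown because they stand for different responses: NDC1 and NUP155 fell the most, while SEC13 and NUP98 were not called. The windows run from 250 bases before to 50 bases from the transcript start in the RefSeq annotation of GRCh38.p14, 5′ to 3′ on the gene's strand. All 4 genes are on the minus strand: NDC1 at chr1:53838247-53838546, NUP155 at chr5:37371057-37371356, SEC13 at chr3:10321063-10321362 and NUP98 at chr11:3797497-3797796. Capitals mark matches to the motifs described after the sequences, on either strand.
NDC1: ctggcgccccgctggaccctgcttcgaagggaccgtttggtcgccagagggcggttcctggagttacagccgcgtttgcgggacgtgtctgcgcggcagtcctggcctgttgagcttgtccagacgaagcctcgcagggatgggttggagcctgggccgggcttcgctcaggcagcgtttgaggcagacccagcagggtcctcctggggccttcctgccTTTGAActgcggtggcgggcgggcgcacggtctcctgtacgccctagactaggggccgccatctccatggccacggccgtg
NUP155: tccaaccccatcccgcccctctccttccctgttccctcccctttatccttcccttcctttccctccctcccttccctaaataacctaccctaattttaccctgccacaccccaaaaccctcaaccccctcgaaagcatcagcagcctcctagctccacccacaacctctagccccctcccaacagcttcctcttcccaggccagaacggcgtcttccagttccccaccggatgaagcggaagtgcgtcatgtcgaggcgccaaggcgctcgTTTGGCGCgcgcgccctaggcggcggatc
SEC13: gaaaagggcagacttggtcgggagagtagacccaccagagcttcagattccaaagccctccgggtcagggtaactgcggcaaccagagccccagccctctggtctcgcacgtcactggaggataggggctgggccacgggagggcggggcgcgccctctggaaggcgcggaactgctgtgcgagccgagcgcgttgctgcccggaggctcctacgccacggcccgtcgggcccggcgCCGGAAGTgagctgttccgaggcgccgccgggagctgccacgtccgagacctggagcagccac
NUP98: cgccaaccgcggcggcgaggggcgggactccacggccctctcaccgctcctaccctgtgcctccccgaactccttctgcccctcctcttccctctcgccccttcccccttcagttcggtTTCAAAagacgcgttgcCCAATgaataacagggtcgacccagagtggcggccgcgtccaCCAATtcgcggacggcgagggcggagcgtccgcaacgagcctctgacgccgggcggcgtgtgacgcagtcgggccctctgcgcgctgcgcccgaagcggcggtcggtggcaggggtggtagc

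In all, 5 motifs were searched on both strands, and a window of this kind was found for 28 of the 30 pore genes. A window was not matched for NUP43 and AHCTF1. The cell cycle genes homology region (CHR, TTTGAA), which occurs in promoters of many genes expressed late in the cell cycle, was in 6 windows (21.4%), those of NDC1, NUP205, NUP37, NUP35, NUP153 and NUP98. It was in 15.2% of all 35116 promoters and 12.4% of those of protein-coding genes. Of the 6, 3 were among the 16 genes that fell and 3 among the 12 that were not called. It begins at position -31 from the start in NDC1, and at -131 in NUP98, which was not called.

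A match to an E2F site (TTTCCCGC, TTTGGCGC, TTTCGCGC or TTTGCCGC), the element of many replication genes, was found in 1 of the 28 windows (3.57%), that of NUP155, beside 3.32% of all promoters and 4.10% of those of protein-coding genes. This match begins at position 22, after the transcript start. The CCAAT box (CCAAT), bound by NF-Y, was in 11 windows (39.3%), beside 34.6% of all promoters and 34.7% of coding ones. It was in 7 of the 16 genes that fell and in 4 of the 12 not called, and the NUP98 window holds 2 copies. The ETS motif CCGGAAGT was in 6 windows (21.4%), those of NUP160, SEC13, NUP35, NUP54, NUP58 and POM121, beside 4.14% of all promoters and 5.34% of coding ones. It was in 2 of the 16 genes that fell and in 4 of the 12 not called. The NRF1 motif, GCGCA followed directly by its reverse complement, was in 3 windows (10.7%), those of NUP107, NUP62 and NUP50, beside 1.24% of all promoters and 1.5% of coding ones. Of these 3 genes 1 fell and 2 were not called. The median GC content was 63.5% over the pore gene windows and 62.3% over those of protein-coding genes. These matches are descriptions of the letters in the windows.

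The central channel is filled by NUP62, NUP58 and NUP54, FG proteins that form 1 trimer and make up part of the permeability barrier. Of the 3 genes 1 fell, and the median difference was -0.22. NUP58 had 6.78, 6.78 and 6.80 in irradiated arrays and 7.01, 7.06 and 7.16 in control arrays, and fell by 0.29 (limma adjusted p = 0.0246). It lost this call whichever array was left out, at an adjusted p of 0.052 to 0.0845. NUP54 had a difference of -0.22 (95% interval -0.36 to -0.09, limma adjusted p = 0.0777), with 6.07, 6.02 and 6.12 in irradiated arrays and 6.28, 6.23 and 6.38 in control arrays. NUP62 had 7.67, 7.74 and 7.75 in irradiated arrays and 7.85, 7.92 and 7.97 in control arrays, a difference of -0.19 (95% interval -0.31 to -0.07, limma adjusted p = 0.0859). All 3 genes had every irradiated array below every control array.

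On the cytoplasmic side, where messenger RNA is stripped of its export factors and transport factors are released, 1 of 4 genes fell. The median difference there was -0.10. NUP88, which anchors NUP214 and NUP98 at the cytoplasmic face, had 7.43, 7.43 and 7.38 in irradiated arrays and 7.69, 7.69 and 7.77 in control arrays. It fell by 0.31 (95% interval -0.41 to -0.20, limma adjusted p = 0.0119). Without irradiated replicate 3 its adjusted p was 0.0515.

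NUP214, an FG protein that binds the export helicase DDX19 and the exportin XPO1, had 7.35, 7.46 and 7.45 in irradiated arrays and 7.37, 7.44 and 7.52 in control arrays. The groups overlapped, and the difference was -0.02 (95% interval -0.16 to 0.11, limma adjusted p = 0.872). NUP42, which binds the export factor GLE1, had 5.91, 5.78 and 5.89 in irradiated arrays and 6.04, 5.78 and 5.94 in control arrays. Its groups overlapped as well, with a difference of -0.06 (95% interval -0.24 to 0.12, limma adjusted p = 0.733). Single arrays moved this value: it was -0.13 without control replicate 2, -0.0009 without control replicate 1 and -0.02 without irradiated replicate 2, and was called in none of these fits.

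RANBP2, or NUP358, forms the cytoplasmic filaments and is a SUMO ligase. It had 8.07, 8.00 and 8.09 in irradiated arrays and 8.24, 8.16 and 8.18 in control arrays, a difference of -0.14 (95% interval -0.25 to -0.03, limma adjusted p = 0.179). The groups did not overlap, by a small margin. The RGPD genes are copies of much of RANBP2, and RGPD4, the brightest of those measured, had a difference of -0.08 (limma adjusted p = 0.462). RANBP2 is therefore also uncertain as the measure of a single gene. None of the 7 measured paralogs of pore genes was called by limma, and 1 of them, POM121C, had an unadjusted p under 0.05.

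NUP98 and RAE1 bind each other and take part in messenger RNA export. The NUP98 gene also encodes NUP96, a Y complex subunit cut from the same precursor protein, so its transcript serves the scaffold too. NUP98 had 7.50, 7.55 and 7.62 in irradiated arrays and 7.57, 7.64 and 7.66 in control arrays. The groups overlapped, and the difference was -0.06 (95% interval -0.19 to 0.06, limma adjusted p = 0.57). RAE1 had 6.76, 6.75 and 6.73 in irradiated arrays and 6.77, 6.78 and 6.80 in control arrays, a difference of -0.04 (95% interval -0.13 to 0.06, limma adjusted p = 0.701). Neither gene had an unadjusted p under 0.05. The intervals of 14 other pore genes lay wholly below that of NUP98, most of them scaffold genes. Differences between genes were not tested, and the same count was not made over all genes.

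The nuclear basket holds TPR, its main filament, and NUP153 and NUP50, FG proteins that help importins release their cargo. Of these 3 genes 1 fell, and the median difference was -0.19. TPR had 7.89, 7.96 and 7.99 in irradiated arrays, against 8.29, 8.30 and 8.33 in control arrays, and fell by 0.36 (95% interval -0.47 to -0.25, limma adjusted p = 0.00602). NUP153 had 7.96, 8.04 and 8.07 in irradiated arrays and 8.17, 8.14 and 8.26 in control arrays, a difference of -0.17 (limma adjusted p = 0.161). NUP50 had 7.17, 7.29 and 7.23 in irradiated arrays and 7.42, 7.38 and 7.47 in control arrays, a difference of -0.19 (limma adjusted p = 0.0935). Every irradiated array was below every control array for all 3 basket genes.

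Genes that work with the pore were set beside its subunits. The Ran cycle gives transport its direction: Ran carries GTP in the nucleus and GDP in the cytoplasm. Of 5 measured genes 2 fell. RANBP1, a cofactor of GTP hydrolysis, fell by 0.32 (limma adjusted p = 0.0481) and RAN itself fell by 0.26 (limma adjusted p = 0.0396). Both lost their calls when any array except control replicate 3 was left out (adjusted p up to 0.165). The median of the 5 was -0.01.

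Among importins and exportins, the receptors that carry cargo through the channel, 9 of 24 fell and none rose, with a median of -0.12. CSE1L, which returns importin alpha to the cytoplasm, had 8.54, 8.53 and 8.58 in irradiated arrays and 9.12, 9.06 and 9.08 in control arrays, and fell by 0.53 (95% interval -0.64 to -0.43, limma adjusted p = 0.00115). XPOT, the exporter of transfer RNA, fell by 0.43 (limma adjusted p = 0.00207) and KPNB1, importin beta, fell by 0.36 (limma adjusted p = 0.0055). With 1 array left out, 4 to 5 of the 9 kept a call.

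For messenger RNA export, 2 of 13 measured genes fell, with a median of -0.07. ALYREF, the adaptor that loads the export receptor, had 8.30, 8.40 and 8.32 in irradiated arrays and 8.92, 8.91 and 9.04 in control arrays, and fell by 0.61 (limma adjusted p = 0.00174). THOC1, of the THO complex, fell by 0.34 (limma adjusted p = 0.0367), a call lost when any array except control replicate 1 was left out. Of 3 measured SUMO and checkpoint proteins that bind the pore, MAD2L1, a spindle checkpoint protein, fell by 0.59 (limma adjusted p = 0.00327).

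The lamina and envelope genes, which line and bound the nucleus, had 7 of 15 lower, 1 higher and a median of -0.18. LMNB1, lamin B1, had 7.53, 7.52 and 7.57 in irradiated arrays and 8.52, 8.48 and 8.53 in control arrays, and fell by 0.97 (95% interval -1.07 to -0.87, limma adjusted p = 0.000161). LBR, the lamin B receptor, fell by 0.73 (limma adjusted p = 0.000528) and TMPO, which encodes the LAP2 proteins, fell by 0.71 (limma adjusted p = 0.00116). SYNE1, the gene of nesprin-1, rose by 0.19 (limma adjusted p = 0.0467) and was named after its value was seen. SYNE1 was dim as well, with a mean of 4.85 over all arrays, and lost its call whichever array was left out.

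**Figure D5:**
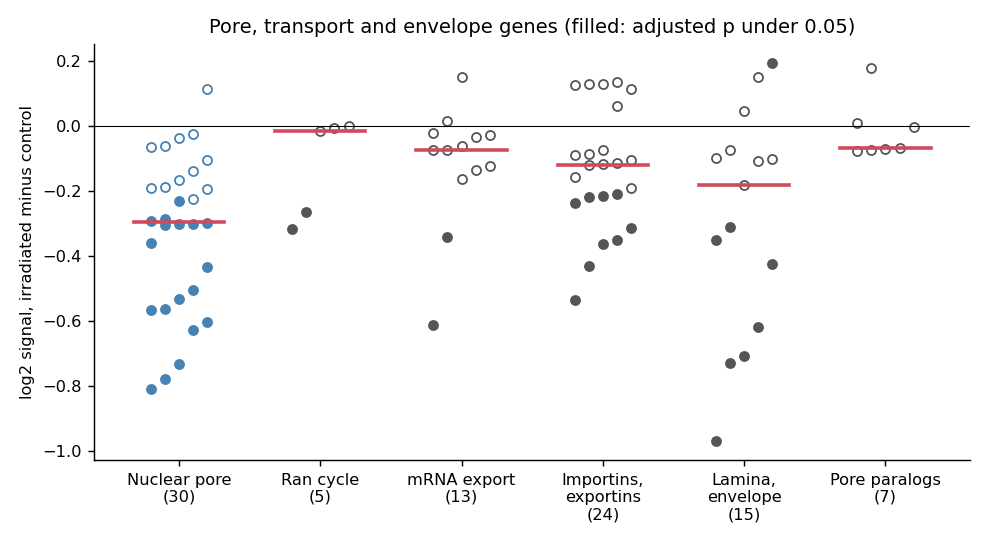
Log2 difference, irradiated minus control, for the 30 nuclear pore genes and the measured genes of 5 related lists, each point 1 gene, filled where the limma adjusted p was under 0.05, with the list's median as a bar. The pore genes have a median of -0.29, against -0.01 for the Ran cycle, -0.07 for messenger RNA export, -0.12 for importins and exportins, -0.18 for the lamina and envelope and -0.07 for pore paralogs.

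Cell cycle genes also moved with irradiation. Of 8 replication markers 7 fell, with a median of -0.82. MCM6 fell by 1.49 and CCNE2 fell by 1.18 on the log2 scale (limma adjusted p = 9.48e-05 and 0.000258). CCNE2 was dim, with a mean of 4.36 over all arrays, and whether its feature was above background is not known. PCNA had a difference of -0.11 and was not called. Of 6 markers of proliferation and mitosis 2 fell, with a median of -0.13. MKI67 fell by 0.67 and TOP2A fell by 0.45 (limma adjusted p = 0.000698 and 0.00207). CCNB1, CDC20, PLK1 and AURKA had differences of -0.07, -0.05, -0.20 and 0.11, and none of them was called. Both lists were drawn up after values of these data had been seen. Their part in the lower signals of the pore genes was not tested.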

How the data were processed

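Per the labels, H460 RNA was hybridised to 6 arrays, 3 irradiated and 3 control. The authors deposited log2 signals, 1 per feature and array. The label descriptions name RMA, while MAS5 is the tool in the submitters' processing notes, and which of them made the values is unsettled. Neither source names an annotation build. The array number limits the precision.

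Values were used as deposited. Of 70523 features, 67528 were transcript clusters, each a group of probes for 1 locus. These were fitted in limma 3.58.1 under R 4.3.3 (lmFit and eBayes, two-sided). Adjustment was by Benjamini-Hochberg over all of them, with a call at an adjusted p under 0.05. The other 2995 features were not transcript clusters and were left out of the main fit. Exactly 1 symbol was given for 23781 clusters, several for 1543 (not named) and none in the table used here for 42204. A gene was represented by its brightest feature. Differences are log2, irradiated minus control, with the moderated standard error.

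The pore genes and all lists were chosen with earlier results of these data known. All 30 pore genes are named. Other lists give up to 3 called genes with the largest change, or the 2 brightest; further names were chosen after their values were seen. The fit was tested on simulated data. Alternatives were each array left out, the replicate number as a block, quantile normalization, an intensity trend, a minimum mean of 5, all features, the mean of a gene's features and a wider grouping of subcomplexes. Promoter windows and protein-coding classes came from RefSeq tables (GRCh38.p14), read with Python 3.11.15.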

Additional observations from a re-analysis of the deposited data

How the results depend on the processing

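Leaving out each array in turn gave 14 to 15 lower pore genes in place of 18, and 12 of the 18 were called in all 6 such fits. Quantile normalization gave 17, an intensity trend 19, a minimum mean of 5 gave 21, and all features or the mean of a gene's features 18. No setting called a pore gene higher. With the replicate block, 11 pore genes were lower. The genes that lost their call with it were NUP133, NUP37, AHCTF1, NUP58, NUP88, NUP210 and AAAS. The deviations of same-numbered arrays correlated at -0.01, -0.07 and -0.04, and no label says whether these arrays were paired. With the block 1598 clusters of the whole table were called, against 3411 without it. A block leaves fewer degrees of freedom, so this drop cannot show whether the arrays were paired. Quantile normalization ended the call of NUP210 (adjusted p = 0.0632), and a minimum mean of 5 added NUP54, NUP62 and NUP50 (0.0307, 0.0322 and 0.036) while testing fewer features. An intensity trend added NUP62 (0.0476).

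The median difference of the 30 genes was -0.30 to -0.26 with 1 array left out, that of the Y complex -0.46 to -0.40, and that of the inner ring -0.61 to -0.59. It was -0.26 to -0.18 for the central channel, -0.14 to -0.08 for the cytoplasmic side, -0.07 to -0.04 for NUP98 and RAE1, -0.29 to -0.24 for the membrane group and -0.22 to -0.16 for the basket. The Y complex median was -0.34 with the mean of a gene's features, where only NUP107 changes. The inner ring median was -0.58 with quantile normalization, and -0.40 when the central channel genes were counted with it, which have smaller differences. That of the cytoplasmic side was -0.06 in place of -0.10 when NUP98 and RAE1 were counted with it. The difference of NUP214 ranged from -0.0625 to 0.0147 with 1 array left out, and its sign turned without irradiated replicate 1 (0.0096) and without control replicate 3 (0.0147). Among other genes that were not called, the range was -0.13 to -0.0009 for NUP42, -0.10 to -0.04 for NUP98 (-0.04 without irradiated replicate 1) and 0.07 to 0.14 for POM121 (0.07 without irradiated replicate 3). Signal over background could not be judged without detection calls, and changes of dim features may be understated.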
